A study of Macaca fascicularis with 80 samples.

Results

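The comparison described here is whole blood of cynomolgus macaques on day 3, 72 h after a first dose of IL-15/IL-15Ra, against blood of the same animals on day 0. Its 16 libraries, 8 of day 3 and 8 of day 0, were taken by their labels from the 80 libraries of the series and were paired by animal number. The tested libraries come from 8 animals, 4 female and 4 male, treated with 5 µg/kg IL-15/IL-15Ra on day 0. The day 0 libraries come from the same animals and carry the label control and a dose of 0 µg/kg. On day 3 the animals received a further 10 µg/kg, and on day 7 15 µg/kg. Because the day 3 libraries carry the first dose in the labels, they were read as drawn before the second, which the labels do not say. No group of undosed animals enters the comparison, so the dose and the passage of 3 days with repeated bleeding cannot be told apart.

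Interleukin 15 is a cytokine that is held by its receptor alpha chain and shown to cells that carry the beta chain shared with interleukin 2 and the common gamma chain. Its signal runs through JAK kinases and STAT5 and supports the survival and division of natural killer cells and memory CD8 T cells. Joining the cytokine to the alpha chain before injection prolongs its action. Whole blood drawn into PAXgene tubes holds RNA of granulocytes, lymphocytes, monocytes, platelets and young red cells together, so that in such bulk samples fewer cells of a type and less RNA per cell cannot be told apart.

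The deposited values were raw counts of reads per gene under Ensembl identifiers of the cynomolgus macaque. These identifiers are not paired with gene names in the sources used here, and 0 of them matched the RefSeq gene table of the species. No marker, pathway or cell type could therefore be checked, and genes are described as groups defined by their behaviour, with 4 identifiers shown as examples. Library totals were 20.50 M to 36.22 M counts on day 3 (M, mega; median 24.13 M) and 21.49 M to 30.35 M on day 0 (median 21.88 M). All 16 libraries carry the same sequencing run and library tag in the column names. In each of the 8 animals the day 3 library resembled the animal's own day 0 library more than that of any other animal.

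By day 3 genes had shifted in both directions, in similar numbers. Of 16054 genes tested, 1270 were higher on day 3 (7.91%) and 1194 were lower (7.44%) by edgeR's quasi-likelihood test with animal as a block and a Benjamini-Hochberg adjusted p under 0.05, together 15.3%. Most of these shifts were small. The median log2 fold change was 0.41 in the group that rose (quartiles 0.31 and 0.64) and -0.44 in the group that fell (quartiles -0.68 and -0.32). Changes below 1.5-fold made up 71.7% of the group that rose and 68.3% of the group that fell, while 172 genes rose and 122 fell by more than 2-fold. Fold changes of called genes reached from -3.81 to 3.28 on the log2 scale. The count of 2464 was 1642 without animal 39100, 1537 without animal 39103 and 275 without the pairing by animal (201 higher and 74 lower). One fit over all 80 libraries called 1118. Scaling factors hold the median change over all genes near 0, so the balance of rises and falls is not independent of them. The larger side turned with upper-quartile factors (1214 higher, 1289 lower), DESeq2 (1467, 1639) and no low-count filter (1399, 1445). It did not turn with library totals (1168, 1085) or limma voom (1385, 1312).

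**Figure D1:**
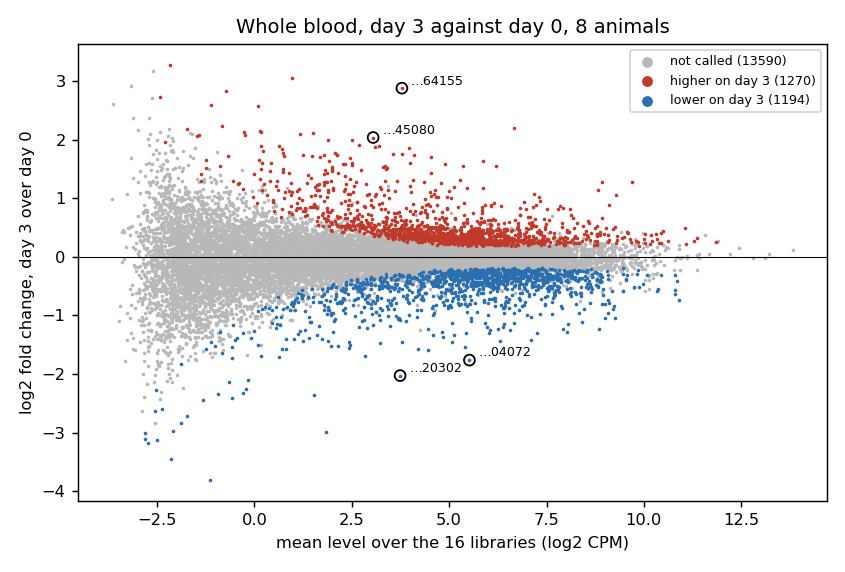
Each point is 1 of 16054 genes, with its mean level over the 16 libraries on the x axis (log2 CPM, counts scaled to library size, on a log2 scale) and its log2 fold change of day 3 over day 0 on the y axis. The 1270 genes called higher and the 1194 called lower lie mostly within 1.5-fold of no change, and circles mark the 4 identifiers printed in the text by their last 5 digits.

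The share of RNA held by these groups moved with them, as follows from how they were chosen. The group that rose held 14.1% ± 1.0 of all counts on day 3 and 10.6% ± 0.97 on day 0 (SD, n = 8 each). The group that fell held 11.96% ± 2.01 on day 3 and 16.04% ± 2.01 on day 0. The remaining 13590 genes tested held 73.9% ± 1.3 on day 3 and 73.3% ± 1.3 on day 0. Their share was higher on day 3 in 6 of 8 animals.

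The groups that rose and fell differed in where they lay on the scale of abundance. Levels are given in log2 CPM, which is not divided by gene length. The group that rose had a median level of 4.93 log2 CPM and the group that fell 5.69, against 3.49 for all genes tested. Genes were split by level into 4 bands of equal size. In the highest band, 5.55 to 13.8 log2 CPM, 11.6% of genes rose and 15.7% fell. In the band below it the balance was the other way, with 12.2% rising and 7.92% falling. In the band from 0.34 to 3.49 log2 CPM, 7.00% rose and 5.21% fell, and in the lowest band 0.897% and 0.947% did so. Shares by band were computed with the main scaling factors only. Changes of called genes were larger where levels were low. The called genes of the lowest band had median changes of 1.65 (rising) and 1.97 (falling, in size) on the log2 scale, and those of the highest band 0.33 and 0.37. The median standard error of a log2 fold change was 0.54 in the lowest band and 0.07 in the highest, so the smallest change that could be called differed between the bands.

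**Figure D2:**
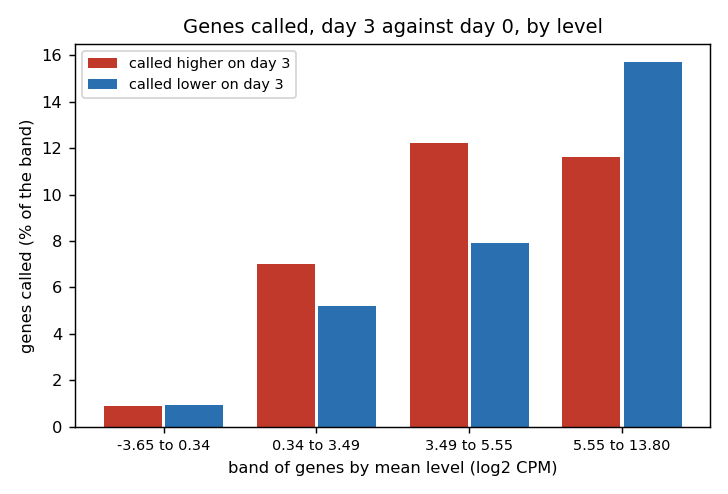
Bars give the percent of genes called higher (red) or lower (blue) on day 3 within each of 4 equal bands of the 16054 genes by mean level. In the highest band 11.6% rose and 15.7% fell, in the band below 12.2% rose and 7.92% fell, and in the lowest band under 1% were called in either direction.

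Agreement between animals was counted gene by gene. Over all genes tested, 1536 changed in the same direction in 8 of 8 animals (9.57%). Of these, 882 were higher on day 3 in 8 of 8 animals (5.49%) and 654 were lower in 8 of 8 (4.07%). Of the 1270 genes that rose, 730 (57.5%) did so in all 8 animals, 467 in 7 and 73 in 6. Of the 1194 that fell, 530 (44.4%) did so in all 8, 479 in 7, 183 in 6 and 2 in 5. These counts follow in part from the calls, which reward agreement. Complete separation of the days was rare. In 47 genes every day 3 library lay above every day 0 library (0.293% of genes tested), and in 31 genes every day 3 library lay below (0.193%). The median SD between animals was 0.41 log2 CPM on day 3 and 0.40 on day 0 over all genes, 0.32 and 0.31 in the group that rose, and 0.41 and 0.39 in the group that fell. The SD was larger on day 3 than on day 0 in 68.3% of the genes that fell and 54.6% of those that rose, against 55.6% of all genes tested.

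The first identifier by size of rise was ENSMFAG00000064155. Its level ran from 3.47 to 6.99 log2 CPM on day 3 (median 5.37) and from 0.46 to 4.67 on day 0 (median 2.10), with 238 to 4586 counts on day 3 and 40 to 561 on day 0. The groups overlapped through the day 0 library of animal 39095, which at 4.67 lay above 2 of the day 3 libraries. Every animal rose, by 1.06 (animal 39095) to 5.03 (animal 39097). The fitted change was 2.88 on the log2 scale, or 7.36-fold (SE 0.36, edgeR adjusted p = 0.00048).

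The second, ENSMFAG00000045080, ran from 2.09 to 5.11 log2 CPM on day 3 (median 4.30) and from 1.05 to 2.77 on day 0 (median 2.22). The groups overlapped only through animal 39090, whose day 3 level was the lowest of that day and whose rise of 0.62 was the smallest. The largest rise was 2.81, in animal 39103. The fitted rise was 2.04, or 4.10-fold (SE 0.21, edgeR adjusted p = 0.00025).

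Of the genes that fell, ENSMFAG00000020302 changed most under the naming rule. It ran from 0.38 to 5.18 log2 CPM on day 3 (median 2.38) and from 1.76 to 6.74 on day 0 (median 5.02). The spread between animals on each day was wide enough for the days to overlap over most of their range, yet each animal was lower on day 3 than on its own day 0, with changes of -0.47 in animal 39090 to -3.75 in animal 39100. The fitted change was -2.03 (SE 0.31, edgeR adjusted p = 0.0013), a 4.08-fold fall. Without the pairing its adjusted p was 0.29 by edgeR.

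The other example of a fall, ENSMFAG00000004072, had 164 to 2553 counts on day 3 and 898 to 3918 on day 0. Its level ran from 2.39 to 6.88 log2 CPM on day 3 (median 4.89) and from 5.14 to 7.47 on day 0 (median 6.68). The days overlapped, and all 8 animals were lower on day 3, with changes of -0.12 in animal 39090 to -3.34 in animal 39100. The fitted change was -1.76, a 3.39-fold fall (SE 0.28, edgeR adjusted p = 0.0016, or 0.23 without the pairing).

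**Figure D3:**
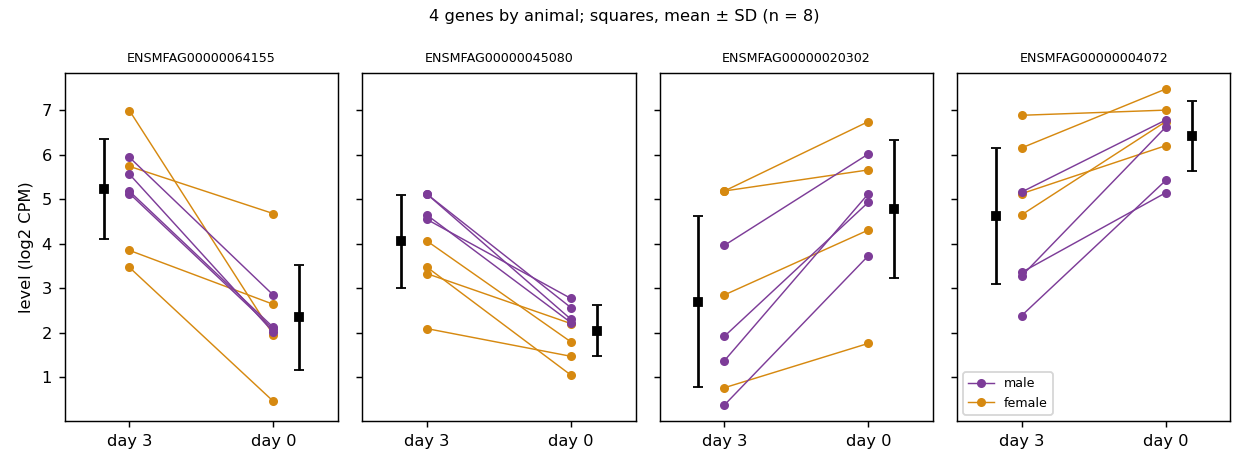
Levels of the 4 identifiers in log2 CPM, with day 3 on the left and day 0 on the right of each panel, 1 line per animal (purple, male; orange, female), and squares with bars for the mean ± SD of 8 animals. All lines of the first 2 panels run higher on day 3 and all lines of the other 2 run lower, while the days overlap in each panel.

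The naming rule shaped these 4 examples. They are the largest and smallest fold changes among the 653 genes that rose and the 474 that fell with a mean level of at least 2 log2 CPM, an adjusted p under 0.05 and 8 animals changing in 1 direction. The 8 of 8 agreement is therefore part of the choice and not a result.

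One animal responded less like the others. The change profile of each animal over 16054 genes was correlated with the mean profile of the other 7, as a description across genes, which are not independent replicates. Animals 39095, 39097, 39098, 39100, 39102, 39103 and 39104 gave r of 0.29 to 0.41, and animal 39090 gave 0.11. Between pairs of animals r ran from 0.09 to 0.31 without animal 39090, and from 0.00 to 0.19 in pairs that included it. In animal 39090 the group that rose had a median change of 0.26 and the group that fell -0.11, where the other animals ranged from 0.35 to 0.58 and from -0.63 to -0.24. The size of its overall change was not small. The root mean square (RMS) log2 change over all genes was 0.80 in animal 39090 and 0.61 to 0.87 in the other animals. Its day 0 library had the highest total of that day, 30.35 M counts, and the part of depth in its profile was not tested. Without animal 39090, 3189 genes were called, 1596 higher and 1593 lower.

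For scale, the change was set beside that between days 17 and 21, a choice made after the data had been seen. These days share no library with the comparison and lie 4 days apart with no further dose level in the labels between them. Both follow all 3 labelled dose levels, so they do not give the change of undosed animals. The RMS log2 change of an animal was 0.75 ± 0.08 between day 3 and day 0 and 0.66 ± 0.07 between day 21 and day 17 (SD, n = 8), larger between day 3 and day 0 in 7 of 8 animals (two-sided exact sign-flip permutation test, p = 0.0391). Over the 10094 genes with a mean of at least 2 log2 CPM it was 0.44 ± 0.06 and 0.34 ± 0.05, again larger in 7 of 8 animals (exact permutation p = 0.0156, adjusted over the 2 tests 0.0312). Counting noise also enters this measure, and the part of library depth in the difference was not tested.

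Composition of the libraries was compared with 4 measures. The 10 genes that were most abundant on day 0 took 7.22% ± 0.63 of counts on day 3 and 6.65% ± 0.50 on day 0 (SD, n = 8), a mean difference of 0.56 percentage points that was positive in 8 of 8 animals (two-sided exact sign-flip permutation test, adjusted p = 0.0312). Of these 10 genes, which had mean levels of 11.6 to 13.8 log2 CPM, 1 was called higher and 0 lower, and their log2 fold changes were -0.03 to 0.37. With the 50 most abundant genes the difference was 0.27 points and did not pass (exact permutation adjusted p = 0.688). The effective number of genes (the exponential of the Shannon entropy of counts) was 3451 ± 278 on day 3 and 3483 ± 273 on day 0, and the number of genes with at least 10 counts after thinning all libraries to 20.50 M counts was 13870 ± 186 and 13910 ± 203 (exact permutation adjusted p = 0.695 for both). Animal 39090 had the lowest effective number of day 3, 3022, against 3414 on its day 0. Without it the mean differences were 19.4 in place of -32.0 for the effective number and 10.3 in place of -39 for the thinned number of genes, neither past the test (exact permutation adjusted p = 0.859 for both).

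The response at 72 h was set against that at 24 h with a direct test of day 3 against day 1, in which the shared day 0 cancels. This test called 967 genes (6.02%), 533 higher on day 3 than on day 1 (3.32%) and 434 lower (2.70%). In this fit large differences lay almost wholly on one side, with 168 genes higher and 14 lower by more than 2-fold. That split was not recounted under other settings. The 533 genes had a median change from day 0 of 0.40 on day 3 and -0.11 on day 1, and the 434 genes of -0.38 on day 3 and 0.03 on day 1. Each group was mixed. Of the 533 genes, 215 (40.3%) were not called against day 0, with medians of 0.16 on day 3 and -0.42 on day 1. Of the 434 genes, 155 (35.7%) were not called against day 0, with medians of -0.17 on day 3 and 0.21 on day 1. Which day has the higher median in each group follows from how the groups were chosen. The same day 3 libraries enter both tests. The balance turned under some settings, with 882 higher and 994 lower by DESeq2 and 849 and 932 with no low-count filter. The count rested on single animals. Omitting animal 39090 raised it to 1805, with 856 higher and 949 lower. Omitting one of the following lowered it, to 598 for 39102, 472 for 39104, 354 for 39095, 338 for 39098, 272 for 39100 and 241 for 39103, and a fit with no pairing called 25 higher and 0 lower.

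All 4 identifiers were called in the direct test as well. ENSMFAG00000064155 was 1.37 higher on day 3 than on day 1 on the log2 scale (SE 0.35, edgeR adjusted p = 0.036) and ENSMFAG00000045080 was 1.81 higher (SE 0.20, adjusted p = 0.0013). ENSMFAG00000020302 was lower by -1.09 (SE 0.17, edgeR adjusted p = 0.0049) and ENSMFAG00000004072 by -0.87 (SE 0.24, adjusted p = 0.048). They were chosen for a large change on day 3, and the same day 3 libraries enter this test.

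The same genes were then followed over the other days as a description, since every change is counted from the same day 0 libraries. Some libraries of days 7, 10 and 14 carry another run or library tag than those of days 0 and 3. The group that rose by day 3 had median changes of 0.17, 0.41, 0.39, 0.30, 0.34, 0.48, 0.39, 0.20 and 0.17 on days 1, 3, 4, 7, 8, 10, 14, 17 and 21, in that order. The group that fell had -0.14, -0.44, -0.23, -0.44, -0.07, -0.47, -0.37, -0.45 and -0.47 on the same days. Over all genes tested the median stayed between -0.04 and 0.04 on each of these days. The scaling factors hold this median near 0, so it is not an independent background. The rising group was nearer to day 0 on days 17 and 21 than on day 3, and the falling group was as low on day 21 as on day 3.

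The falling group lay nearer to day 0 on days 4 and 8, the days after the other doses, than on the days before and after them. From day 7 to day 8, a step that uses neither day 0 nor day 3, its median change was 0.35 and was positive in 8 of 8 animals, from 0.17 to 0.87. From day 8 to day 10 its median change was -0.39 and was negative in 8 of 8 animals, from -0.75 to -0.19. The step from day 3 to day 4 was 0.21, positive in 6 of 8 animals. Because it starts from the day 3 libraries by which the group was chosen, a rise follows in part from the choice. In the same intervals all genes tested had median steps of -0.06, 0.04 and -0.02, which the scaling factors hold near 0. The rising group had a step of 0.00 from day 7 to day 8, with 4 animals up and 4 down, and of 0.14 from day 8 to day 10, with 7 of 8 animals up.

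**Figure D4:**
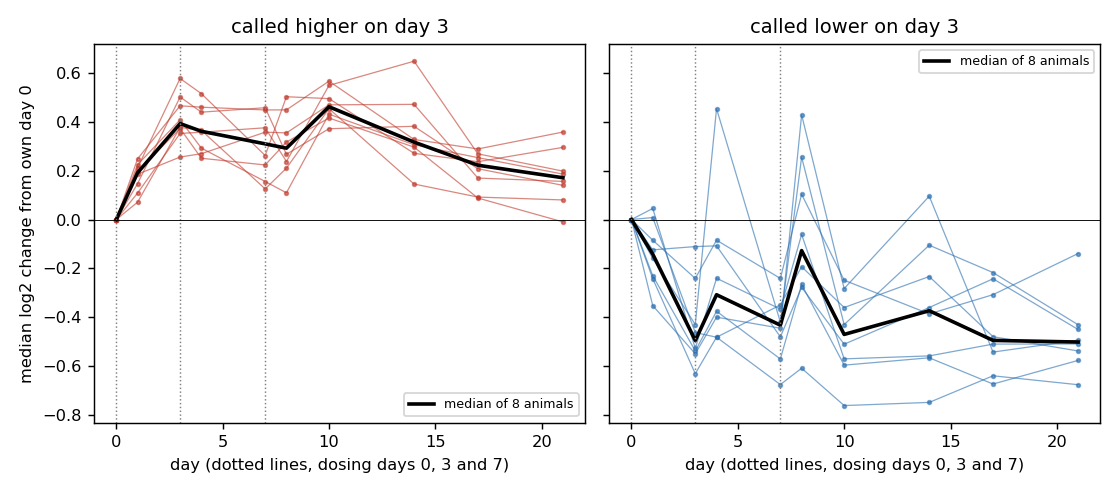
Thin lines give, for each of 8 animals, the median log2 change from the animal's own day 0 over the 1270 genes called higher on day 3 (left) and the 1194 called lower (right), and the black line is the median of the 8 animals. The left group stays above day 0 in most animals through day 21. The right group lies nearer to day 0 on days 4 and 8 than on day 3, the day by which both groups were chosen. It lies below day 0 on days 17 and 21 in all 8 animals.

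Single identifiers took different courses. ENSMFAG00000064155 averaged 2.35, 3.79, 5.23, 5.21, 3.34, 4.55, 5.09, 4.24, 2.47 and 1.65 log2 CPM on days 0, 1, 3, 4, 7, 8, 10, 14, 17 and 21, in that order (SD 0.61 to 2.26, n = 8 each). It was thus near its day 0 level on day 17. ENSMFAG00000045080 averaged 2.05, 2.28, 4.05, 3.08, 2.97, 2.85, 3.53, 1.53, 2.24 and 1.90 log2 CPM on these days, in the same order. Its highest mean was that of day 3, which the choice of identifiers by their day 3 change favours. ENSMFAG00000020302 was lower on all later days than on day 0, with means of 4.78, 3.79, 2.70, 0.87 and 2.38 log2 CPM on days 0, 1, 3, 10 and 21, and each of the 8 animals was below its own day 0 on each of those days. ENSMFAG00000004072 averaged 6.42, 5.50, 4.62, 5.32, 5.09, 6.57, 5.21, 6.46, 5.12 and 4.76 log2 CPM on days 0, 1, 3, 4, 7, 8, 10, 14, 17 and 21, in that order. Its mean was thus near its day 0 level on days 8 and 14 (SD of the change 1.68 and 1.36, n = 8). On those days 4 and 3 of 8 animals were above their own day 0. The mean was about as low on day 21 as on day 3.

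Day 10 also lies 3 days after a dose, that of 15 µg/kg, and was compared directly with day 3. Dose, number of doses and elapsed time differ together between these days. The test called 169 genes (1.05%), 95 higher on day 10 than on day 3 (0.592%) and 74 lower (0.461%), and 2434 genes had an unadjusted p under 0.05. Library totals in place of scaling factors turned the balance, with 45 higher and 67 lower. ENSMFAG00000020302 was lower still on day 10, by -1.90 (SE 0.23, edgeR adjusted p = 0.0035), while ENSMFAG00000064155, ENSMFAG00000045080 and ENSMFAG00000004072 had differences of -0.14, -0.55 and 0.58 that did not pass (SE 0.57, 0.32 and 0.37; edgeR adjusted p = 0.94, 0.46 and 0.51). Of the day 10 libraries, 3 carry another run tag and 4 exceed 40 M counts. Among the 5 animals (4 females and 1 male) with both libraries in the shared run, 116 genes were called, 82 higher and 34 lower. Omitting animal 39103 raised the count of 169 to 255. Omitting one of the following lowered it, to 87 for 39100, 86 for 39104, 69 for 39098, 50 for 39095, 41 for 39102 and 39 for 39097, and a fit with no pairing called 32.

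Sex was examined through the interaction of sex with day. The count of genes called by edgeR was 0 (0%), the smallest adjusted p was 0.167, and 749 genes had an unadjusted p under 0.05, while DESeq2 called 20. The sexes fitted apart gave very unequal counts, 2022 genes in the 4 males (912 higher and 1110 lower) and 3 in the 4 females, of which 2076 had an unadjusted p under 0.05. This does not show that the sexes differ, which the interaction tests. In the group that rose the median change was 0.45 in males and 0.37 in females, and in the group that fell it was -0.51 in males and -0.35 in females. Animal 39090 is a female. Without it the female medians were 0.40 and -0.43, and the 3 remaining females gave 88 calls. The other sets of 3 females gave 0 to 7 calls, and any 3 of the males gave 1361 to 1916.

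ENSMFAG00000020302 showed the widest gap of the 4 identifiers between the sexes. It changed by -3.75 to -2.05 in the 4 males and by -1.56 to -0.47 in the 4 females. The interaction (male minus female change) was -1.85 and did not pass (SE 0.34, edgeR adjusted p = 0.31). How many of all genes tested have changes that do not overlap between the sexes was not counted, so no sex difference is read from these ranges. For ENSMFAG00000064155, ENSMFAG00000045080 and ENSMFAG00000004072 the changes of males and females overlapped.

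**Figure D5:**
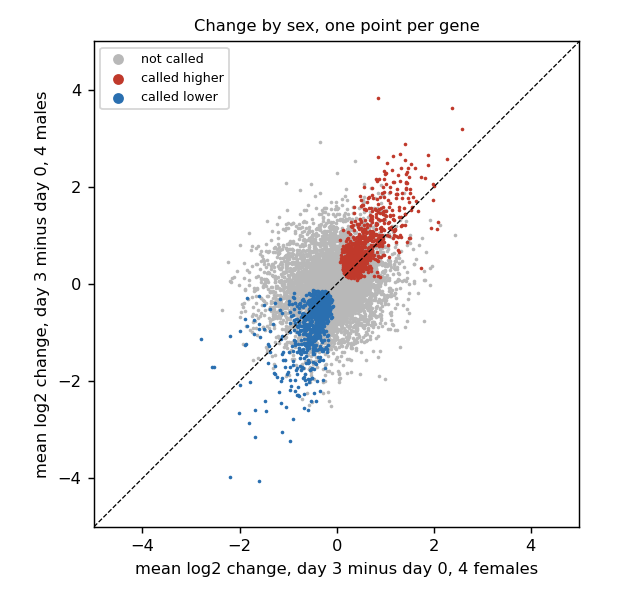
Each point is a gene, with its mean log2 change from day 0 to day 3 in 4 females on the x axis and in 4 males on the y axis, and the dashed line marks equal change. Called genes lie in the quadrants of shared direction (100%, against 69.9% of all genes tested). This follows in part from calls made on these same animals. In the males 68.7% of the genes called higher and 78.5% of those called lower changed more, against 57.6% of all genes tested. Without female 39090 the shares of the called genes were 62.8% and 69.8%. The share over all genes tested was not computed without this animal, so these shares have no matching background. Genes are not independent replicates of sex.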

How the data were processed

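RNA was isolated from PAXgene whole blood with the RNAdvance Blood kit and made into mRNA libraries with KAPA HyperPrep reagents, per the labels' protocols. The authors deposited raw counts of reads per gene in 2 tables of the same 80 libraries, with 38550 genes in the first, used here, and 35432 in the second. The sources used here do not name the aligner, the counting program, its strand setting or the build, and reads shared by near-identical genes could not be traced. The filter for low counts (edgeR's filterByExpr, grouped by day, all 80 libraries) kept 16054 genes (41.6%). TMM factors were computed over all 80 libraries and ran from 0.905 to 1.19 in the 16 libraries of days 3 and 0. Fits used the 16 libraries of the days compared, with edgeR 4.0.16 (glmQLFit, glmQLFTest) in R 4.3.3 and animal as a block, and p-values were adjusted over all genes tested. A prior count of 2 was added for log2 CPM. The sex test added the interaction of sex and day. Alternatives used DESeq2 1.42.0 and limma 3.58.1 (voom). The fit of day 3 against day 0 and the sex interaction were run on simulated counts. These held no differences between animals, unlike the libraries here. The sex interaction found the changes put into them less often than the fit of day 3 against day 0 did.

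The animal number pairs the libraries: deviations from the day means correlated at r = 0.43 or more between the 2 libraries of an animal (median 0.51) and at a median of -0.08 between animals. Libraries of the same day all differed by more than counting noise (smallest chi-square per degree of freedom 33.4). Composition used an exact sign-flip test of 256 flips, whose smallest p is 0.00781. The comparison and its lists were chosen with earlier results of these data known. The gene lists and markers set down for named genes could not be used without names. Named identifiers are the 2 largest and 2 smallest log2 fold changes among called genes with a mean of at least 2 log2 CPM and 1 direction in all 8 animals.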

Additional observations from a re-analysis of the deposited data

Results flagged for a closer look

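Among 24 groups of 8 values tested for a value far from the rest, 3 were flagged, where chance flags about 1 in 20. Animal 39090 stood apart in how its change profile correlated with the mean of the other 7 animals (r = 0.106). Its day 0 library had a total of 30.35 M counts, far above the others of that day, and the day 3 library of animal 39097 had 36.22 M. The difference between the responses at 72 h and 24 h, tested directly, called 967 genes, and the difference between days 10 and 3 called 169.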

How the results depend on the processing

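The count of 2464 genes for day 3 against day 0 stayed within 1.5 times under library totals, upper-quartile factors, DESeq2, limma voom, no low-count filter, removal of the 20 most abundant genes, males alone and the second count table (2022 to 3106). It was 275 with no replicate block, that is without pairing by animal, 1118 in one fit over all 80 libraries, 3 in the 4 females, 88 in 3 females without 39090 and 994 at an adjusted p under 0.01. Leaving out 1 animal gave 1537 to 3189. For day 3 against day 1, DESeq2 gave 1876, no filter 1781, no replicate block 25 and leaving out 1 animal 241 to 1805. For day 10 against day 3, library totals gave 112, DESeq2 953, limma voom 325, no filter 294, no replicate block 32 and leaving out 1 animal 39 to 255. The sex interaction gave 20 by DESeq2, 250 without the filter and 0 to 2 with 1 animal left out. The cause of these shifts was not tested. The block also carried the calls of both identifiers that fell (adjusted p = 0.29 and 0.23 without it). In the 4 females none of the 4 identifiers passed (adjusted p 0.095 to 0.19), and with any 1 animal left out all 4 passed. The top 10 share difference was 0.265 for 50 genes and 0.528 to 0.607 with 1 animal left out, where 7 animals allow no exact p under 0.0156 and the adjusted p was 0.0625 each time. Low counts limit the genes of the lowest level band most.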
